A study of Mus musculus with 2 samples.

Results

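Microglia are the resident macrophages of brain tissue, and 9 genes that mark them were followed in hippocampal RNA of mice fed the carotenoid astaxanthin (ASX) and of mice on a control diet. The genes were Tmem119, P2ry12, Cx3cr1, Csf1r, Trem2, C1qa, Itgam, Aif1 and Cd68, taken as every probe for a mouse transcript on both arrays whose RefSeq accession belongs to one of these symbols. By that rule 8 of the 9 had at least 1 probe, 13 probes in all, out of 16533 gene symbols with a probe on the arrays. No accession on the arrays was paired with Cd68, the gene of a lysosomal glycoprotein of phagocytes, in the RefSeq table of assembly GRCm38.p6, so Cd68 was not analysed here. Where a gene had several probes, the brightest gave its value and the others served as a check.

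The animals were male C57BL/6J mice of 11 weeks and 26 to 28 g, housed singly. The ASX group received, for 4 weeks after 1 week of acclimatization, powdered chow with 0.5% by weight of a powder holding 2% astaxanthin from the alga Haematococcus pluvialis. The control group received the same chow with 0% of it and placebo powder, for the same time. Total RNA of the hippocampi of both groups was hybridised together on 2 two-colour arrays. Array 1 carried the ASX RNA in Cy5 and the control RNA in Cy3, and array 2 carried the ASX RNA in Cy3 and the control RNA in Cy5. The titles give n = 4 and the design text names 4 replicates per diet, but the labels leave unsaid how the RNA of the mice was joined. The 2 arrays were therefore read as a dye swap of 1 pair of RNA samples, which gives 1 replicate of the diet comparison. No test of the diet was possible. Any SD printed here is technical, between the 2 arrays or, where stated, over spots of a probe.

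Microglia depend throughout life on the receptor CSF1R and its ligands CSF1 and IL-34, and in the resting state they carry receptors that read signals of neurons, among them CX3CR1 for fractalkine and P2RY12 for adenosine diphosphate. They clear debris and synapses with the help of TREM2, of complement C1q and of complement receptor 3, whose alpha chain is the product of Itgam. On activation, the RNA of the resting-state receptors is known to decline while that of phagocytic and antigen-presenting genes increases. In whole-tissue RNA a lower signal can come from fewer microglia or from less RNA per cell, and the arrays cannot tell these apart.

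The microglial markers differed little between the diets. None of the 8 measured genes differed by 1.5-fold or more with one sign of the diet difference on array 1 and array 2 alike, which is the size rule used throughout. Over all 23597 genes and transcripts measured for both RNAs on both arrays, 0.0636% were higher by this rule and 0.0212% lower. All 8 lay within 1.2-fold of equality on each array, as 82.6% of all genes did. The mean log2 ratio of ASX over control over the 2 arrays was below 0 for all 8, between -0.17 for Tmem119 and -0.01 for Trem2, that is 0.891-fold to 0.993-fold. A mean below 0 was also found for 59.5% of the 13313 genes with a symbol and for 52.0% of all genes and transcripts. On both arrays at once, 3 of the 8 were below 0, namely Tmem119, P2ry12 and Aif1, none was above 0, and 5 had opposite signs. Of genes with a symbol, 26.4% had both values below 0 and 14.3% both above, and of all genes and transcripts 23.0% had both below and 22.2% both above. The median of the 8 was -0.06 in the mean of the arrays, -0.03 on array 1 and -0.10 on array 2. The median of all genes with a symbol was -0.02, and the median of the 8 lay 0.04 log2 units under it (a difference of -0.04).

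**Figure D1:**
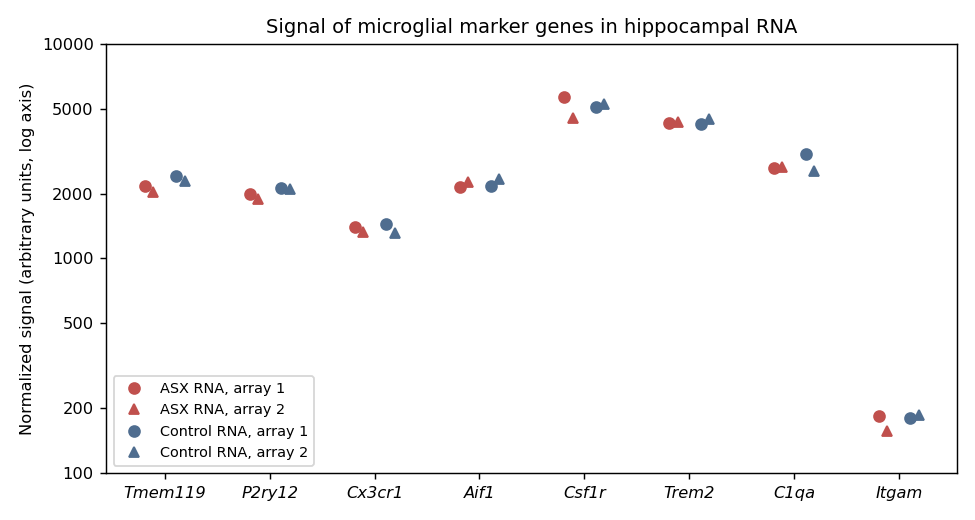
Normalized signal (arbitrary units, log axis) of each measured microglial marker gene, with the ASX RNA (red) left of the control RNA (blue), array 1 as circles and array 2 as triangles. The 4 points of a gene lie close together; for Tmem119 both ASX points lie below both control points (2178 and 2044 for ASX against 2431 and 2306 for control), while for Csf1r the ASX points lie on either side of the control points. Signals of different genes come from different probes and are not comparable.

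Tmem119 encodes a transmembrane protein that marks resident microglia and is low or absent in most other macrophages. Its probe gave a normalized signal, after correction for background and dye and in arbitrary units, of 2178 on array 1 and 2044 on array 2 in the ASX RNA, against 2431 and 2306 in the control RNA. Both ASX values lay under both control values. That held for 2 of the 8 members, Tmem119 and P2ry12, and for 13.9% of all genes and transcripts, while the opposite order held for no member and for 15.0% of all. Its log2 ratio of ASX over control was -0.16 on array 1 and -0.17 on array 2, a mean of -0.17 with an SD of 0.01 between the arrays (0.891-fold). By these values Tmem119 was the member furthest from equality, and 12.0% of all genes lay further from 0 in the mean. The ratios of the scanner software were -0.11 on array 1 and -0.26 on array 2, so the closeness of the arrays depended on normalization. In the mean of those ratios Itgam (-0.21) was further from equality than Tmem119 (-0.19).

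P2ry12, the gene of the adenosine diphosphate receptor with which microglial processes sense injury, showed the same order. Its signal was 1997 and 1893 in the ASX RNA, against 2134 and 2097 in the control RNA, and again both ASX values lay under both control values. The log2 ratio was -0.10 and -0.15 on arrays 1 and 2, a mean of -0.12 with an SD of 0.04 (0.919-fold). Neither Tmem119 nor P2ry12 had a second probe to check these values against.

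Cx3cr1, the gene of the fractalkine receptor, was close to equal. Its signal was 1401 and 1324 in the ASX RNA, against 1451 and 1317 in the control RNA, with overlapping groups. Its log2 ratio was -0.05 and 0.01, a mean of -0.02 (SD 0.04). A dimmer Cx3cr1 probe gave 0.03 and 0.01, so the probes had means of opposite sign, both near 0. The ligand gene Cx3cl1, which neurons transcribe, stood at 0.15 and 0.03 on the same scale.

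Aif1 encodes IBA1, the calcium-binding, actin-bundling protein used most widely to stain microglia. Its signal was 2144 and 2261 in the ASX RNA, against 2171 and 2345 in the control RNA. The ASX value was the smaller on each array, but by less than the arrays differed from each other. The log2 ratio was -0.02 and -0.05, a mean of -0.04 (SD 0.02). A dimmer Aif1 probe gave -0.31 on array 1 and -0.01 on array 2, a mean of -0.16, so the size of the Aif1 value depended on the probe while its sign did not.

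Csf1r, the gene of the receptor for CSF1 and IL-34, had ratios of opposite sign on the 2 arrays. Its signal was 5682 on array 1 and 4530 on array 2 in the ASX RNA, against 5109 and 5269 in the control RNA, so the ASX values lay on either side of the control values. The log2 ratio was 0.15 on array 1 and -0.22 on array 2, a mean of -0.03 with an SD of 0.26, the largest among the members. Both other Csf1r probes had the same pair of signs, at 0.06 and -0.09, and at 0.13 and -0.04. All 3 probes were thus brighter in Cy5 on both arrays, and their means over the swap were -0.03, -0.01 and 0.05. Whether the dye or noise gave these signs was not tested. The ligand genes Csf1 and Il34 had opposite signs on the arrays, -0.22 and 0.02 for Csf1, and -0.21 and 0.12 for Il34.

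**Figure D2:**
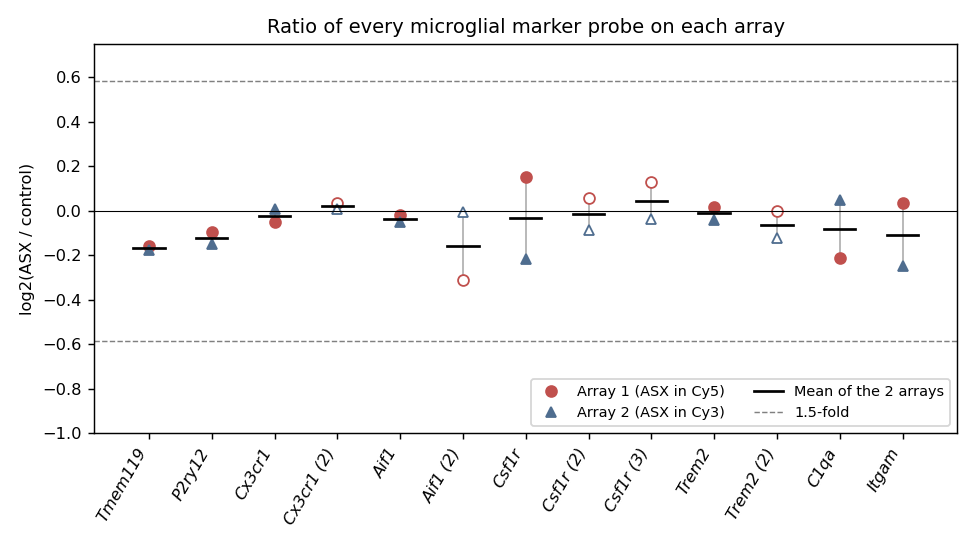
Log2 ratio of ASX over control for each of the 13 probes of the 8 measured markers, on array 1 (red circles) and array 2 (blue triangles), with the mean of the 2 arrays as a black bar. Filled symbols are the brightest probe of a gene, open symbols its other probes (numbered 2 and 3), and dashed lines mark 1.5-fold; no probe reaches them on either array, and all 3 Csf1r probes are above 0 on array 1 and below 0 on array 2.

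Trem2 encodes a lipid-sensing receptor that signals through the adaptor TYROBP. Its signal was 4282 and 4336 in the ASX RNA, against 4227 and 4456 in the control RNA, with the ASX value higher on array 1 and lower on array 2. The log2 ratio was 0.02 and -0.04, a mean of -0.01 with an SD of 0.04, and 91.2% of all genes lay further from 0. A dimmer Trem2 probe gave -0.00 and -0.12, a mean of -0.06. Tyrobp had -0.15 on array 1 and 0.01 on array 2. Plcg2, the gene of a phospholipase that acts downstream of TREM2 in microglia, had 0.09 and 0.07, and Syk, the gene of a kinase recruited by TYROBP, had 0.15 and -0.03.

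C1qa, C1qb and C1qc encode the 3 chains of complement C1q, which microglia supply in the brain. C1qa had a signal of 2649 and 2657 in the ASX RNA, against 3066 and 2566 in the control RNA. The 2 ASX values were nearly the same and the control values lay on either side of them. Its log2 ratio was -0.21 on array 1 and 0.05 on array 2, a mean of -0.08 with an SD of 0.18. The other chains did not share this pair of signs: C1qb had 0.00 and 0.06, and C1qc 0.14 and -0.19. The 3 chains thus had means of -0.08, 0.03 and -0.02.

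Itgam, the gene of CD11b, was the dimmest member. Its median pixel intensity before any correction was 210 and 150 in the ASX RNA, against 228.5 and 204 in the control RNA, over local backgrounds of 63 to 74. After normalization the signal was 184 and 157 in the ASX RNA, against 179 and 187 in the control RNA. The ASX value was higher on array 1 and lower on array 2, with log2 ratios of 0.04 and -0.25, a mean of -0.11 and an SD of 0.20. The sign on array 1 depended on normalization. In the ratios of the scanner software Itgam was below 0 on both arrays, at -0.07 and -0.36, a mean of -0.21. Itgb2, the gene of the beta chain CD18 that pairs with CD11b, had 0.11 and -0.12, a mean of -0.00.

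The start regions of the members whose promoters were at hand are described here for context, with the 2 of lowest mean ratio printed, P2ry12 and Itgam. PU.1, the product of Spi1, is a transcription factor that macrophages and microglia need, and it binds purine-rich sites. Only 1 form of their core was looked for here, GAGGAA. Windows of 300 bases from 250 before to 50 after the start came from the RefSeq table of build GRCm38.p6. By symbol they were matched to 6 of the 9 genes, with no window used for Tmem119, Csf1r or C1qa. The match left out windows on a single chromosome that the share over all windows kept, so any member there was not looked at. The core or its reverse complement TTCCTC was present in 4 of the 6 (Itgam, Cd68, Aif1 and Trem2) and in 28.3% of all 32851 windows. The P2ry12 window lies at chr3:59262936-59263235 on the minus strand, and the Itgam window at chr7:128062390-128062689 on the plus strand. Both read 5′ to 3′ along the gene, with capitals for this form of the core on either strand. The P2ry12 window holds no match to this form, and other forms were not looked for.
P2ry12: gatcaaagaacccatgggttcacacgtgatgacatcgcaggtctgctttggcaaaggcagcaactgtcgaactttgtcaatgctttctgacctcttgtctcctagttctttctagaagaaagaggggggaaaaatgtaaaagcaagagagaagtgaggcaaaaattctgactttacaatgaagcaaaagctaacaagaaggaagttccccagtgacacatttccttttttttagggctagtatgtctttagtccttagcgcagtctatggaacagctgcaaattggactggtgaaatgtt
Itgam: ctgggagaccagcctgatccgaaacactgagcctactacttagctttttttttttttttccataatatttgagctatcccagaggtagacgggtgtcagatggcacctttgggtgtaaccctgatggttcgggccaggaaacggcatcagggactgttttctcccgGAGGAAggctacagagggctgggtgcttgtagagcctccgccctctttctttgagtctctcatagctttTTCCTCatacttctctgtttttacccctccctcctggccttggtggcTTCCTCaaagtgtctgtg
The Itgam window holds 1 match on the gene's strand and 2 on the other. A match describes letters and not binding. Spi1 itself was not well above background in all 4 channels, so no ratio is given for it.

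The scale of these differences can be set against technical error. The scanner software assigned each log ratio an error, which for the members was 0.20 to 0.22 on the log2 scale. In the scanner's own ratios, none of the 8 members was 2 errors or more from 0 on each array in the same diet direction, while 0.894% of all genes were above 0 by that measure and 0.153% below. The highest single value was 1.64 errors, for Itgam on array 2. Among 193 measured probes printed on 10 spots each, the median SD over spots of the mean log2 ratio was 0.03. This spread was taken after the 2 arrays were averaged, so it is not comparable with an SD between arrays. The median SD between arrays was 0.04 for the members and 0.11 for all genes. The dye part of the ratio, which reverses with the swap, exceeded the diet part for 5 of the 8 members and for 54.8% of all genes. That happens exactly where the arrays have opposite signs, so it restates the count of opposite signs above and is no separate measure.

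**Figure D3:**
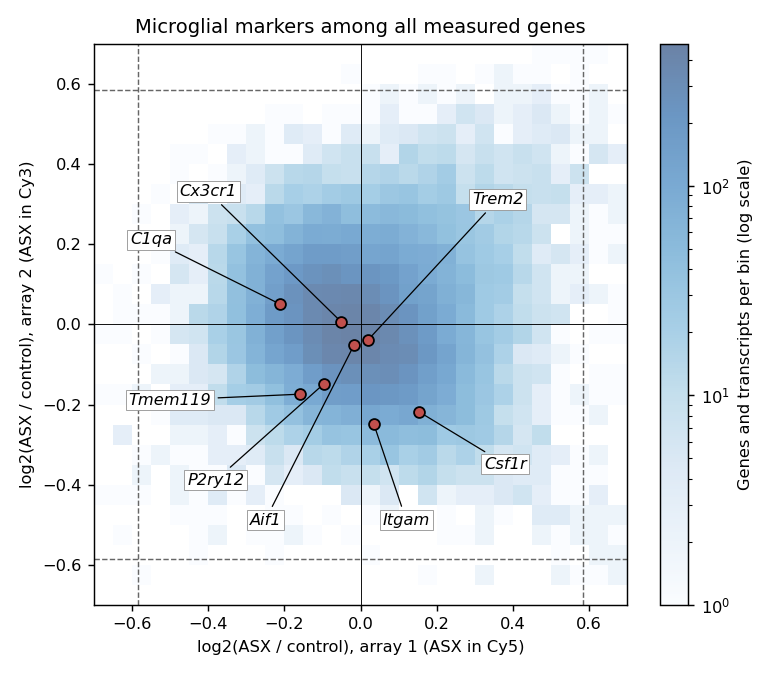
Log2 ratio of ASX over control on array 1 (horizontal) and array 2 (vertical); shading counts genes and transcripts per bin of 0.05 on a log scale, red points are the 8 measured markers, dashed lines mark 1.5-fold. The markers lie inside the dense centre, 3 of them at the lower left (below 0 on both arrays), and 85 genes or transcripts beyond the axes are not drawn.

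Genes related to the members were taken from lists, some of which share members. Counts of list genes above or below 0 on both arrays stand against 14.3% above and 26.4% below among all genes with a symbol. The list of 20 other genes of resting-state microglia had 18 measured, and none passed the 1.5-fold rule in either direction. Its median was -0.08, with -0.07 on array 1 and -0.10 on array 2. Below 0 on both arrays were 9 of the 18. Gpr34, the gene of a lysophosphatidylserine receptor, had -0.28 and -0.11. Entpd1, the gene of the ectonucleotidase CD39, had -0.28 and -0.09, but a dimmer Entpd1 probe had 0.02 and -0.02. Hpgds, the gene of a prostaglandin D synthase, had -0.24 and -0.04.

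Among 14 ligands and partners of the members, 13 were measured and none passed. Their median was -0.02 in the mean of the arrays but 0.09 on array 1 and 0.02 on array 2, so its sign was that of neither array. Above 0 on both arrays were 4, and none was below. The values of Cx3cl1, Csf1, Il34, Tyrobp, Itgb2, C1qb and C1qc stand beside their partners above, and Cd200, the gene of a neuronal ligand that restrains microglia, had 0.03 and -0.24. Of 17 complement genes 14 were measured, with a median of -0.02 (0.00 on array 1, -0.09 on array 2), and none passed. C3, the gene of the central complement component, had -0.26 on array 1 and -0.24 on array 2, a mean of -0.25 (0.842-fold), further from 0 than any microglial marker. Cd55, the gene of a complement inhibitor, had -0.11 and -0.17, and Serping1, the gene of the C1 inhibitor, had 0.00 and 0.25.

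Lists of activated states likewise held no gene that passed. The 19 measured genes of disease-associated microglia, out of 21, had a median of -0.03 (0.01 on array 1, -0.03 on array 2), with 2 above and 3 below 0 on both arrays and 14 of opposite signs. Fth1, the ferritin heavy chain gene, had 0.94 and -0.64, of opposite sign on the arrays, and Ccl6, a chemokine gene, had -0.12 and -0.12. The 17 measured genes of lysosome and phagocytosis had a median of -0.03 (-0.07 on array 1, -0.08 on array 2), with none above and 3 below 0 on both arrays. Those 3 were Laptm5, the gene of a lysosomal membrane protein of leukocytes, at -0.11 and -0.33, Fcgr1 at -0.27 and -0.09, and Fcgr3 at -0.19 and -0.08, both genes of immunoglobulin G receptors. A second Laptm5 probe gave -0.21 and -0.29, and a second Fcgr3 probe -0.13 and 0.02.

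Antigen presentation had 7 measured genes of 13 and a median of 0.02 (-0.05 on array 1, 0.03 on array 2), and all 7 had opposite signs on the arrays, among them Tap1, a peptide transporter gene, at -0.05 and 0.19. Cd86, the gene of a costimulatory ligand, had -0.05 and 0.18, and H2-Ab1, a class II chain gene, 0.20 and -0.10. Innate sensing had 10 measured genes of 13 and a median of -0.08, which was -0.14 on array 1 and -0.02 on array 2, and -0.17 in the ratios of the scanner software. Above 0 on both arrays was 1 of the 10, and 5 were below. Casp1, the gene of the protease that matures interleukin-1 beta, had -0.17 and -0.18. Myd88, the gene of the adaptor of Toll-like receptors, had -0.15 and -0.16, and Tlr2, one such receptor gene, had -0.20 and -0.05.

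**Figure D4:**
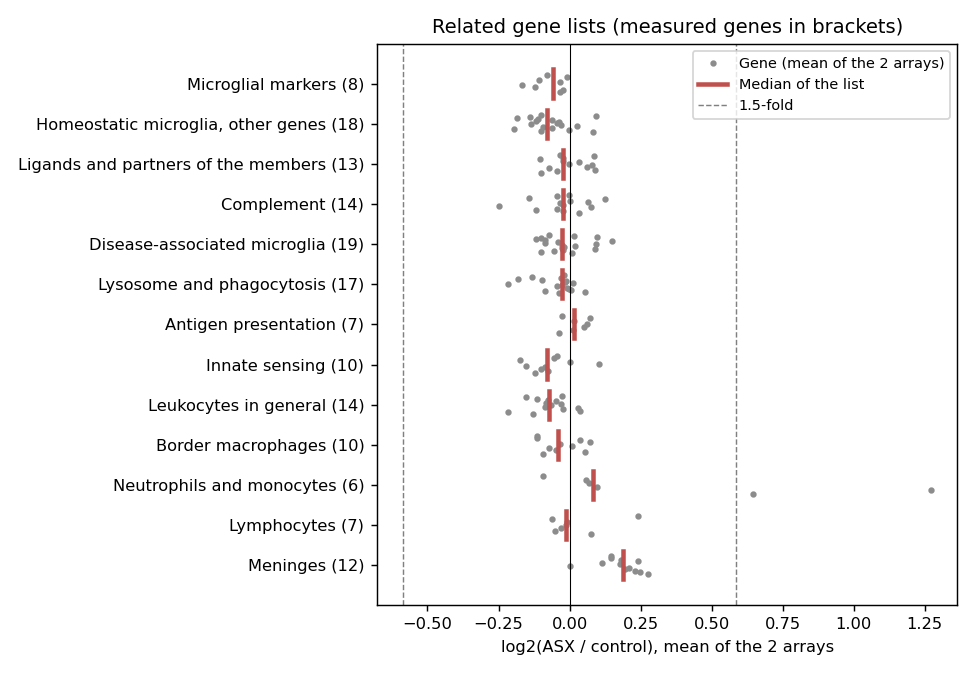
Log2 ratio of ASX over control, mean of the 2 arrays, for each measured gene (grey points) of the microglial markers and of 12 related lists, with the median of each list in red, dashed lines at 1.5-fold and the number of measured genes in brackets. The microglial and resting-state lists have medians of -0.06 and -0.08, the meningeal list 0.19, and the 2 points beyond 1.5-fold are S100a8 and S100a9.

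Markers of other cells that the tissue could hold were read in the same way. General leukocyte genes had a median of -0.07 over 14 measured of 15, with none above and 6 below 0 on both arrays and none past the rule, with Ptprc, the gene of CD45, at -0.29 and 0.03, and Vav1 at -0.29 and -0.02. Macrophages of the brain's borders had a median of -0.04 over 10 measured of 11, with 1 above and 5 below 0 on both arrays. Folr2 had -0.11 and -0.12, Clec10a -0.07 and -0.16, and Mrc1, the gene of the mannose receptor CD206, -0.10 and -0.08. The summed signal of the border list was 3082 and 3110 in the ASX RNA, against 3122 and 3115 in the control RNA. That of the 8 microglial markers was 20518 and 19200 in the ASX RNA, against 20768 and 20543 in the control RNA. Each sum is weighted to its brightest probes and is set only against the same sum in the other RNA. The part of border macrophages in the microglial values was not tested.

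Neutrophil and monocyte genes gave the only members of these lists that passed. S100a9 and S100a8, whose products form the neutrophil protein calprotectin, passed the rule with more signal in the ASX RNA, at 1.17 and 1.38 for S100a9 and at 0.63 and 0.67 for S100a8. With no background subtraction 1 of them passed. The other measured genes of the list, 4 of 17, did not pass, among them Csf3r at -0.12 and -0.07, Mpo at 0.11 and 0.08 and Mmp9 at 0.15 and -0.01. The granule genes Ngp, Camp, Ltf, Lcn2 and Elane were not well above background in all 4 channels. The list's summed signal was 1074 and 1153 in the ASX RNA, against 804 and 832 in the control RNA. Within it S100a9 had 391 and 419 against 174 and 161, and S100a8 had 137 and 137 against 88 and 86. The higher sum thus mostly restates these 2 genes. Lymphocyte genes had a median of -0.01 over 7 measured of 11 (0.03 on array 1, -0.06 on array 2), with opposite signs for 5 and none past the rule.

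Meningeal genes had a median of 0.19 over 12 measured of 12, with 9 above and none below 0 on both arrays and none past the rule, with Bgn, the gene of the matrix proteoglycan biglycan, at 0.38 and 0.18. With median centring their median was 0.06. Their summed signal was 37133 and 38023 in the ASX RNA, against 37149 and 33552 in the control RNA. Whether the amount of meninges taken with the tissue bears on the microglial values was not tested. A list of 12 genes of hippocampal neurons was read too, which cannot tell hippocampus from other brain tissue, since no other tissue was measured. All 11 with a probe, Prox1 of granule cells and Wfs1 of CA1 pyramidal cells among them, were well above background in all 4 channels. So were 13313 of the 16533 gene symbols with a probe. The median of the 11 neuronal genes was 0.03, that of 10 astrocyte genes -0.03 and that of 9 oligodendrocyte genes -0.06. That of 10 endothelial and pericyte genes was -0.04, and no gene of these 4 lists passed. On the single arrays, astrocytes had a median of 0.05 on array 1 and -0.00 on array 2, oligodendrocytes one of -0.07 and -0.08, and endothelium and pericytes one of 0.04 and 0.03, both above 0 where the median of the mean ratios was below it.

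The size of the microglial values depended on normalization, while their mean over the arrays stayed below 0 for all 8 under each setting that used both arrays. Before it, the median pixel intensity of all 8 members was lower in the ASX RNA than in the control RNA on both arrays, and so was that of 81.6% of all genes. The median over all mouse transcript spots was 264.5 on array 1 and 208 on array 2 in the ASX RNA, against 298 and 244 in the control RNA. With each array centred on its median in place of loess, under which all genes had a median of -0.10 and genes with a symbol one of -0.16, the members had a median of -0.23, which is 0.07 log2 units under that of genes with a symbol (a difference of -0.07). Then 7 of the 8 lay under 0 on each array, as 61.4% of genes with a symbol were, and 3 of the 8 lay within 1.2-fold on each array. Tmem119 had a mean of -0.35 and P2ry12 of -0.30 with this centring. No member passed the 1.5-fold rule under it. Over all genes the rule gave 15 higher and 5 lower, 12 and 12 with median centring, and 71 and 12 with the scanner's own ratios.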

How the data were processed

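Hippocampal RNA of both diets was measured on 2 two-colour Agilent mouse arrays. Per the submitters' processing notes and the file headers, the authors quantified the scans in Feature Extraction 11.0.1.1 (Agilent). Deposited intensity values are medians over the pixels of a spot in each channel, beside a median local background, both unnormalized per the file headers. The deposited log10 ratio (processed Cy5 over Cy3), its log10 error and the processed intensity come from the scanner software, which subtracted background and normalized dyes, per the file headers. The deposited value table equals log10 of the processed ratio within 5e-08 and leaves the swapped dyes as scanned, with array medians of 0.00503 and 0.00826.

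The normexp method (offset 50) of limma 3.58.1 (R 4.3.3) removed background, loess with zero weight on control spots was run within each array, and ratios were turned to log2(ASX / control). Per-channel signals were taken after Aquantile scaling, and spots of a probe were averaged. Control spots and 3 non-uniform spots were dropped, and saturation was seen at no spot. A probe counted as measured when well above background in all 4 channels (30071 of 41171 probes). The ASX RNA was above background at 77.8% and 76.7% of spots and the control RNA at 78.2% and 75.8%. Accessions were named through the RefSeq table of GRCm38.p6, which gave a symbol to 23372 probes. The arrays were designed on another build, so no probe coordinates are given. The steps were tested on simulated dye swaps with planted changes larger than that of any member, so the test does not bear on differences of the members' size.

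With 1 replicate no p-value is given. A gene passed when it differed by 1.5-fold or more with the same sign on array 1 and array 2, with 1.2-fold as an alternative. The number of arrays limits the precision. The members and lists were chosen with earlier results of these data known. The genes named were all members, the direct partners, and from each list those that passed and up to 3 with the largest absolute mean ratio; Plcg2, Syk, Prox1, Wfs1 and the granule genes were named in addition.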

Additional observations from a re-analysis of the deposited data

How the results depend on the processing

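Under all 11 alternatives none of the 8 microglial markers passed the size rule, the 1.2-fold rule and each array alone included. Their median was -0.23 with median centring, and the cause of the shift was not tested. It ran from -0.10 to -0.03 when either array was left out. Under the other alternatives it lay between -0.09 and -0.04, the lowest with the mean over probes and the highest with the scanner's ratios. The deposited value table gave the same median as those ratios. In the mean of the arrays all 8 were below 0 under every setting that used both, with Csf1r at -0.00 for the mean over its probes. The 1.2-fold rule and looser background filters could not change these ratios, as all 13 member probes were well above background. On array 1 alone 5 of the 8 were below 0 and on array 2 alone 6. The count below 0 on both arrays was 3 as reported, 6 with the scanner's ratios and 7 with median centring. The count within 1.2-fold on each array was 8 as reported and 3 with median centring. It was 7 with the scanner's ratios, the deposited value table, no background subtraction or a normexp offset of 16. No paired analysis was possible because the 2 arrays are a dye swap of 1 pair of RNA samples. Signal over background limits Itgam most among the members.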
